A study of Mus musculus with 6 samples.

Results

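The genes described here are 10 imprinted genes of fetal growth: Igf2, H19, Dlk1, Meg3, Peg3, Mest, Grb10, Plagl1, Peg10 and Ndn. They were taken by name from a list that was chosen with earlier results of these data known, so the choice was not independent of the data. They were matched through their Ensembl identifiers and are 10 of the 31053 genes in the tables. The cells came from lungs of wild type C57BL6 mouse fetuses at E17, which were digested, frozen, thawed and cultured on diluted Matrigel in a medium for haematopoietic stem and progenitor cells. On days 4, 5 and 6 of culture 2 fractions were collected, floating cells (suspension) and cells that had attached (adherent). All groups share that strain, stage and medium, with FGF, VEGF, Flt3, IL6, SCF (stem cell factor) and mTPO (thrombopoietin). Adherent cells were detached with accutase and sorted to enrich live cells that carry VE-cadherin, an endothelial adhesion protein, whereas suspension cells were collected without that sort, so handling and attachment cannot be told apart. There is 1 droplet library for each fraction on each day, 6 in all, and whether days are separate cultures, or how many fetuses were pooled, is not in the labels.

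An imprinted gene is read mainly from the copy inherited from the mother or mainly from that inherited from the father, and many such genes lie in clusters that share a control region. Paternally expressed genes such as Igf2, Dlk1, Peg3, Mest, Plagl1 and Peg10 tend to favour growth of the fetus, and maternally expressed ones such as H19 and Grb10 tend to restrain it. Several are abundant in fetal mesenchyme and endothelium and are shut down after birth. The counts do not separate the parental copies, so nothing here measures imprinting itself.

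The sense-strand counts of the libraries summed to between 36451255 and 57784974, and levels are given as CPM, counts scaled to a common library size by TMM, where 3 counts correspond to 0.0594 to 0.0756 CPM. Each value sums the whole library without its cells being separated, so fewer cells of a type and less RNA per cell cannot be told apart. Counting intervals cover no more than counting error. They can be too narrow even for that, because reads rather than molecules were counted. All 10 listed endothelial markers were lower in suspension, with summed levels of 660 to 1722 CPM in adherent and 13.3 to 20.4 CPM in suspension libraries. The adherent libraries also held markers that do not define endothelium. Their 10 fibroblast markers summed to 2296, 3246 and 2982 CPM on days 4, 5 and 6, their 8 pericyte and smooth muscle markers to 2729, 501 and 711 CPM, and their 7 macrophage markers to 1881, 2583 and 5166 CPM. Suspension libraries held 15096 to 16356 CPM of the macrophage markers, of which Lyz2 alone held 13214 to 14362 CPM. Reads outside any gene's sense strand were 31.1% to 34.9% of adherent and 20.9% to 21.2% of suspension reads in the assigned classes. Mitochondrial genes with Malat1 and Neat1, a list that reflects RNA quality, summed to 73104 to 111159 CPM in adherent and 23370 to 26671 CPM in suspension cells, and its part in the results below was not tested.

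Of the 10 imprinted genes, 9 were lower in suspension than in adherent cells and none was higher, and the exception was Igf2, whose counts are few and may not reflect its level. All 10 passed the filter on low counts. Calls use the quasi-likelihood test of edgeR, with p-values adjusted (Benjamini-Hochberg) over the 14912 genes tested and a threshold of 0.05. Of all these genes 29.7% were called lower and 27.1% higher, 56.8% in all. The median log2 ratio of the 10 genes was -4.48, beside -0.0025 over all genes tested. For the same 9 genes every suspension library lay below every adherent library, which held for 34.4% of all genes tested (the reverse held for 33.4%). Together the 10 genes summed to 756, 892 and 1170 CPM in adherent cells on days 4, 5 and 6, and to 69.0, 32.6 and 15.9 CPM in suspension. The summed level was thus higher on each later day in adherent cells and lower on each later day in suspension.

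**Figure D1:**
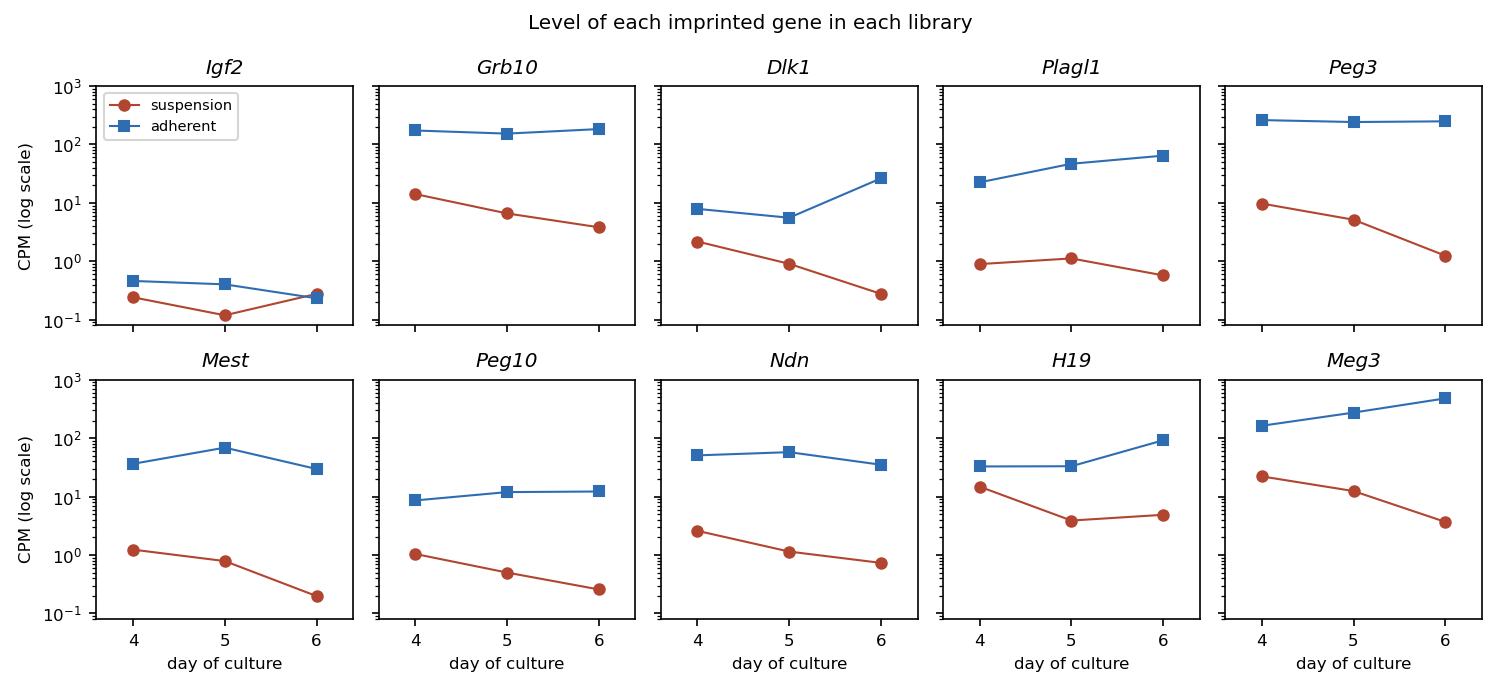
Level of each of the 10 genes in CPM (log axis) against the day of culture, with 1 point per library and lines joining the libraries of a fraction. The adherent points lie above all suspension points in every panel except that of Igf2, which stays between 0.119 and 0.461 CPM.

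Upstream sequence is shown first for the 3 genes whose levels fell per day in suspension (Meg3, Grb10 and Peg3) and for Dlk1, the neighbour of Meg3. RefSeq (GRCm38.p6) gave starts for 8 of the 10 genes. Each of the first 3 lines is the 250 bases before the first listed start, and Peg3 is shown as 28 bases around a single match. Capitals mark matches, on either strand, to TATAAA (the TATA box), GGGCGG (the GC box), GGGGCCCC (the core bound by PLAGL1, itself among the 10 genes) or GCCATNTT (the core bound by YY1).
Meg3, chr12:109540746-109540995, plus strand: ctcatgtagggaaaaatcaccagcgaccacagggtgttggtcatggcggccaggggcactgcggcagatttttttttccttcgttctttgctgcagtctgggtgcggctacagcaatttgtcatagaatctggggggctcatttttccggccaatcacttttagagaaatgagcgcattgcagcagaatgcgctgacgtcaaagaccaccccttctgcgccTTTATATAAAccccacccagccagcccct
Dlk1, chr12:109452573-109452822, plus strand: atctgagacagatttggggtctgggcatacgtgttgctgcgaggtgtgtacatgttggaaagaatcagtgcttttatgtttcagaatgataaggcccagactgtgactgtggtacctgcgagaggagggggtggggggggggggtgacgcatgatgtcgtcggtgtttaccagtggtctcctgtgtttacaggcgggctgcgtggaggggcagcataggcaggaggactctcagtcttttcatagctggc
Grb10, chr11:12037421-12037670, minus strand: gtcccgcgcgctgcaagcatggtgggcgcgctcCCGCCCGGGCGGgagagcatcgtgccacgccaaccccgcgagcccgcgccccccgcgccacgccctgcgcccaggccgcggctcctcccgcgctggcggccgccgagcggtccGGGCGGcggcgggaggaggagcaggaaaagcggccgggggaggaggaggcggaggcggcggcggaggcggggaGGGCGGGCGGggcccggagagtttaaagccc
Peg3, chr7:6730603-6730630, minus strand: actctgcttgGGGGCCCCtaacactgac

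The matches differed between these genes. Meg3 held 2 overlapping matches to the TATA box, 1 per strand, whose first bases lie at -29 and -25 from the start, and 12.4% of 32851 RefSeq promoter windows of the same length hold that motif. The Grb10 window shown held 5 matches to the GC box, 2 of them overlapping, which 32.7% of windows hold at least 1 time. It held 40 CpG dinucleotides against a median of 6 over all windows. Grb10 and Meg3 each have a second listed start, whose window held no match and 8 and 0 CpG dinucleotides. Peg3 held the PLAGL1 core at -201 from the start, which 0.889% of windows hold. Dlk1 held no match, and the YY1 core, found in 3.91% of windows, was in none of the 15 windows of the 8 genes. A match is a description of these letters and not a binding site.

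Igf2 (ENSMUSG00000048583, mm10 chromosome 7, 142650766 to 142666816, minus strand) encodes insulin-like growth factor II, a main growth factor of the fetus. It had 10, 5 and 14 sense counts in suspension on days 4, 5 and 6 and 20, 16 and 10 in adherent cells. The lowest of these counts has a 95% Poisson interval of 1.62 to 11.7 and the highest of 12.2 to 30.9, and the fractions overlapped. The log2 ratio of -0.76 ± 0.49 (SE) did not pass (adjusted p = 0.222 by edgeR). These counts may not reflect the level of Igf2. Of its 5723 exon bases in GENCODE M21, 62.8% also belong to Gm49394, a protein-coding gene model on the same strand that the tables list, and of the 500 exon bases nearest its 3' end 99.4% do. Tables of this layout put reads that overlap more than 1 gene on the counted strand into a separate ambiguous class, though the annotation the authors counted with is not given in the sources used here. That class held 569926 to 756733 reads per library (0.974% to 1.13%), and Gm49394 had 2 counts in all 6 libraries together. How many ambiguous reads came from Igf2 cannot be told apart in these tables.

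Grb10 (ENSMUSG00000020176, mm10 chromosome 11, 11930508 to 12038683) encodes an adaptor protein that binds the insulin and IGF1 receptors and restrains their signal. Suspension cells had 14.1, 6.60 and 3.82 CPM on days 4, 5 and 6, whereas adherent cells had 173, 153 and 183 CPM. The adherent level thus stayed within a narrow band while the suspension level was lower on each later day. The log2 ratio of suspension to adherent was -4.38 ± 0.50 (SE, adjusted p = 0.00096 by edgeR). Dlk1 (ENSMUSG00000040856, mm10 chromosome 12, 109452823 to 109463336) encodes a membrane protein with EGF-like repeats that holds back differentiation. Its level was 2.18, 0.905 and 0.277 CPM in suspension and 7.89, 5.57 and 26.3 CPM in adherent cells, so that the adherent library of day 6 stood far above the other adherent libraries. Its log2 ratio of -3.57 ± 0.91 (adjusted p = 0.0154 by edgeR) was -2.59 without that library, and without the suspension library of day 5 it did not pass (-3.46, adjusted p = 0.0611). Over all alternatives tried for Dlk1 the adjusted p lay between 2.46e-05 and 0.0611.

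Plagl1 (ENSMUSG00000019817, mm10 chromosome 10, 13060504 to 13131694) encodes a zinc finger transcription factor, also called ZAC1, known to regulate other imprinted genes. Its CPM were 0.896, 1.12 and 0.574 in suspension and 22.4, 46.7 and 64.3 in the adherent fraction. The suspension libraries showed no order by day, and the adherent ones were higher on each later day. Its log2 ratio was -5.69 ± 0.50 (adjusted p = 0.000543 by edgeR). Peg3 (ENSMUSG00000002265, mm10 chromosome 7, 6703892 to 6730431) encodes a large zinc finger protein with roles in cell survival and maternal behaviour. Its adherent level was the steadiest of the 10 genes in relative terms, at 261, 242 and 249 CPM, a mean of 250.5 ± 9.75 (SD, n = 3). In suspension it was at 9.73, 5.15 and 1.25 CPM. The log2 ratio was -5.55 ± 0.73 (adjusted p = 0.00148 by edgeR).

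Mest (ENSMUSG00000051855, mm10 chromosome 6, 30723547 to 30748465) encodes an enzyme-like protein of the hydrolase family that marks mesoderm and growing fat tissue. Its CPM were 1.23, 0.786 and 0.198 in suspension and 36.3, 68.7 and 29.6 in the adherent fraction, with a peak on day 5. Its log2 ratio, -5.95 ± 0.67 (adjusted p = 0.000955 by edgeR), was the furthest from 0 among the 10 genes, although within standard errors Mest overlaps Plagl1, Peg3, Ndn and Meg3. Counted on either strand the ratio was -4.01, and the last 500 exon bases of Mest lie wholly across exons of Copg2 on the other strand. Either-strand counts of Mest were 424, 742 and 393 in adherent cells, below its sense counts of 1575, 2729 and 1272. In suspension they were 29, 41 and 34, beside sense counts of 51, 33 and 10. Peg10 (ENSMUSG00000092035, mm10 chromosome 6, 4747306 to 4760517), a gene derived from a retrotransposon and needed for the placenta, had 1.04, 0.5004 and 0.257 CPM in suspension. Its adherent levels were 8.58, 11.9 and 12.2 CPM, and its log2 ratio was -4.19 ± 0.51 (adjusted p = 0.00116 by edgeR). Ndn (ENSMUSG00000033585, mm10 chromosome 7, 62346569 to 62350262) encodes necdin, a MAGE family protein that restrains cell division. Its CPM were 2.59, 1.14 and 0.733 in suspension and 50.7, 57.5 and 35.0 in the adherent fraction. The adherent mean of Ndn was 47.8 ± 11.5 CPM (SD, n = 3) and its log2 ratio -5.01 ± 0.50 (adjusted p = 0.000697 by edgeR).

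H19 and Meg3 are long noncoding RNAs expressed from the maternal copy. H19 (ENSMUSG00000000031, mm10 chromosome 7, 142575529 to 142578143), the neighbour of Igf2, had 14.8, 3.88 and 4.87 CPM in suspension, against 32.7, 33.0 and 91.8 CPM in the adherent fraction. The first suspension library and the last adherent library each stood well above the other libraries of their fraction. Its log2 ratio of -2.75 ± 0.67 (adjusted p = 0.0137 by edgeR) stayed past the threshold when either was left out, at -3.62 without the former and -2.07 without the latter. Meg3 (ENSMUSG00000021268, mm10 chromosome 12, 109541001 to 109571726), the neighbour of Dlk1, had 22.1, 12.4 and 3.68 CPM in suspension. The adherent libraries had 163, 273 and 479 CPM, higher on each later day. Its log2 ratio was -4.58 ± 0.76 (adjusted p = 0.00318 by edgeR).

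**Figure D2:**
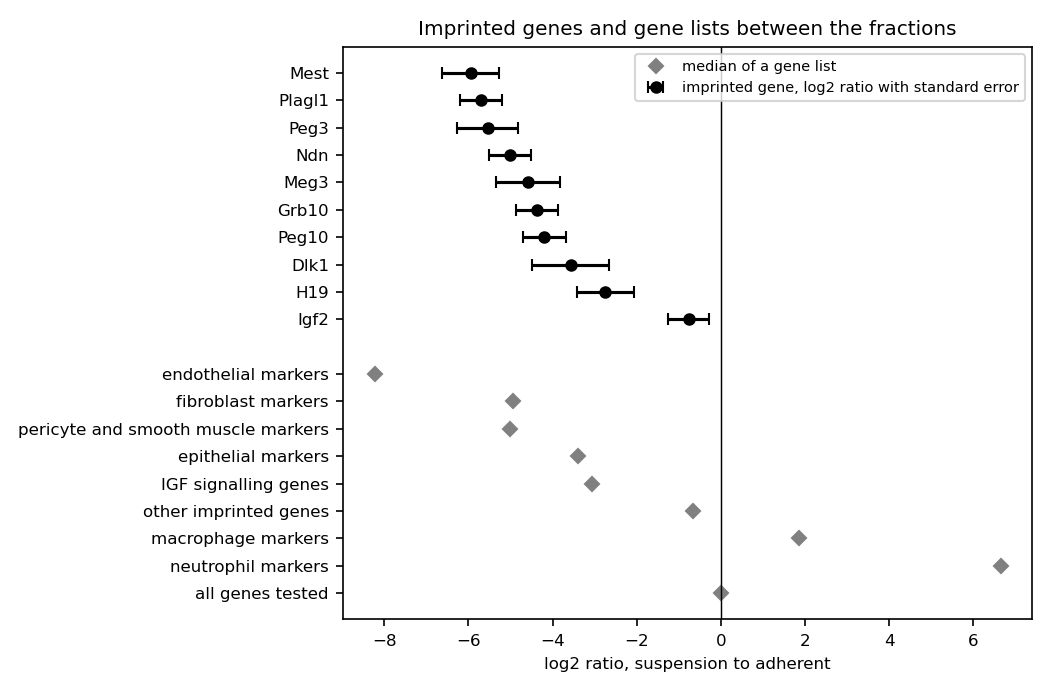
Log2 ratio of suspension to adherent for each of the 10 genes (black points, bars are standard errors) and the median log2 ratio of gene lists (grey diamonds, tested genes only). The 9 genes called lower lie between -5.95 and -2.75, around the fibroblast median of -4.94 and short of the endothelial median of -8.23.

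All 9 genes were also called lower in a test against a 2-fold difference, with adjusted p from 0.00121 for Plagl1 to 0.0459 for H19 (edgeR's glmTreat). Of the 14912 genes tested, 3759 passed that test in either direction. Markers of other cells moved with the same contrast. Of 9 tested fibroblast markers 9 were lower in suspension, with a median log2 ratio of -4.94, and of 8 pericyte and smooth muscle markers 7 were lower, with a median of -5.01. The median of the 10 endothelial markers was further from 0 (-8.23), and that of 7 macrophage markers, of which 6 were higher, was 1.86. Every marker in these 4 lists had counts in both fractions, and the part of any cell type in the imprinted genes' result was not tested.

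The suspension level as a percent of the adherent level of the same day separated the genes. On day 4 it was 45.1% for H19, 27.6% for Dlk1, 13.6% for Meg3, 12.1% for Peg10 and 8.17% for Grb10. It was between 3.40% and 5.11% for Ndn, Plagl1, Peg3 and Mest. By day 6 H19 was at 5.31% and the other 8 genes called lower were between 0.502% (Peg3) and 2.11% (Peg10). The percent was lower at both steps, from day 4 to 5 and from 5 to 6, for 8 of the 10 genes (all but Igf2 and Ndn), as it was for 32.1% of all genes tested. It was so for 7 of 9 fibroblast, 6 of 8 pericyte and smooth muscle, 6 of 7 macrophage and 3 of 10 endothelial markers. The fibroblast markers with the highest mean level, Fn1 (fibronectin) and Col1a2 (a collagen I chain), went from 21.05% to 8.32% and from 4.36% to 0.681% between days 4 and 6. Of the corresponding endothelial markers, Cldn5 was at 0.0491%, 0.0104% and 0, and Egfl7 was at 8.45%, 2.93% and 6.55%. These are values of single libraries with no replicate at a day. On day 6 those of Mest, Peg10 and Dlk1 rest on 10, 13 and 14 suspension counts.

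**Figure D3:**
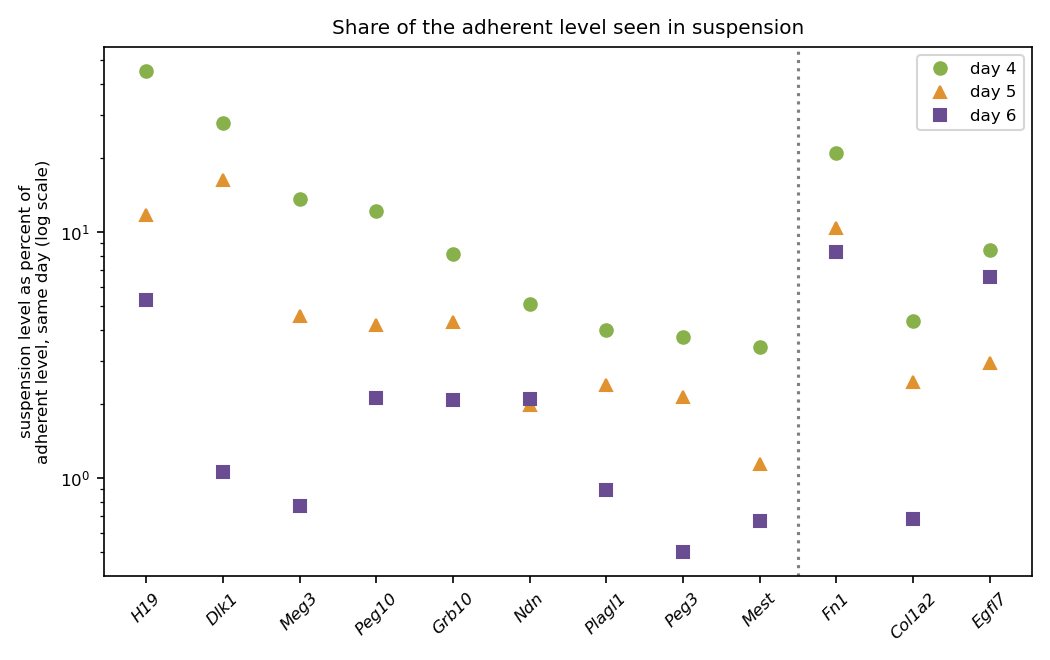
Suspension level as a percent of the adherent level of the same day (log axis) for the 9 imprinted genes called lower and, right of the dotted line, for the markers Fn1, Col1a2 and Egfl7, with 1 symbol per day (Cldn5 is left out, being at 0 on day 6). For 8 of the 9 genes the day 6 value lies below the day 5 value, and among the 9 genes H19 is the highest on days 4 and 6.

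Change over the days was asked with slopes, in log2 per day, from a fit with 2 residual degrees of freedom. In suspension Grb10 fell by 0.95 ± 0.09 per day (adjusted p = 0.0379), Meg3 by 1.27 ± 0.14 (adjusted p = 0.0452) and Peg3 by 1.42 ± 0.16 (adjusted p = 0.0471), all by edgeR. These are 3 of the 10 genes, where 0.402% of all genes fell and 0.0939% rose in suspension. Without a test, 7 of the 10 genes were lower at both steps, from day 4 to 5 and from 5 to 6 (Dlk1, Meg3, Peg3, Mest, Grb10, Peg10 and Ndn), as were 24.9% of all genes. None was higher at both steps, beside 24.1% of all genes. The slopes of the other genes in suspension did not pass and lay between -1.45 for Dlk1 and 0.12 for Igf2. Of the 10 slopes 9 were below 0, as were 7695 of the 14912 over all genes tested. The median slope in suspension was -0.98, beside -0.0064 over all genes tested. Without the suspension library of day 4 the adjusted p was 0.112 for both Meg3 and Peg3 and 0.406 for Grb10. It was 0.838 for these 3 genes without that of day 6, and 0.0548 for Grb10 without that of day 5, so each call needs the first and the last suspension library. Without day 4 the slopes were -0.83 for Grb10, -1.79 for Meg3 and -2.08 for Peg3, and without day 6 they were -1.10, -0.83 and -0.92, so all stayed below 0. On counts of either strand, which for Meg3 were fewer than its sense counts, Meg3 (adjusted p = 0.0725) and Peg3 (adjusted p = 0.0502) did not pass by edgeR. Fibroblast markers in suspension summed to 232, 160 and 79.1 CPM on days 4, 5 and 6, endothelial markers to 20.4, 16.2 and 13.3 CPM and epithelial markers to 232, 35.1 and 13.4 CPM. Much of each sum came from 1 gene, so the sums need not follow numbers of cells. Fn1 held 165, 98.6 and 62.1 CPM of the fibroblast sums and Egfl7 10.4, 8.22 and 7.13 CPM of the endothelial ones. Sftpc held 167, 19.6 and 6.81 CPM of the epithelial sums. Pericyte and smooth muscle markers summed to 104, 16.8 and 7.88 CPM, and the 6 neutrophil markers were higher on each later day, at 24884, 31925 and 77190 CPM (2.35%, 3.03% and 6.75% of counts). The part of these cells in the falling levels was not tested.

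In adherent cells Meg3 rose by 0.78 ± 0.12 log2 per day (adjusted p = 0.0228 by edgeR) and Plagl1 by 0.76 ± 0.15 (adjusted p = 0.0355 by edgeR). That is 2 of the 10 genes, where 7.75% of all genes rose and 3.52% fell in adherent cells. By level alone H19, Meg3, Plagl1 and Peg10 (4 of the 10) were higher at both steps and Igf2 was lower at both, beside 33.5% and 21.9% of all genes. From day 4 to day 6 Meg3 went to 2.94 times and Plagl1 to 2.86 times its first level. The slopes of H19 and Dlk1 were of like size, 0.75 ± 0.28 and 0.88 ± 0.31, but did not pass (adjusted p = 0.151 and 0.126 by edgeR). For both genes the adherent libraries of days 4 and 5 lay close together and that of day 6 stood apart. Grb10 and Peg3, at 0.04 ± 0.08 and -0.04 ± 0.13 log2 per day, had the slopes nearest 0 in adherent cells. The call on Meg3 was lost without the adherent library of day 4 (adjusted p = 0.153) or day 6 (adjusted p = 0.164). That on Plagl1 was lost without any library but the adherent library of day 5, with adjusted p of 0.319 and 0.0893 without the adherent libraries of days 4 and 6 and from 0.0516 to 0.0542 without a suspension library. Over the same days the adherent macrophage markers summed to 1881, 2583 and 5166 CPM, and 6 of 7 of them rose.

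**Figure D4:**
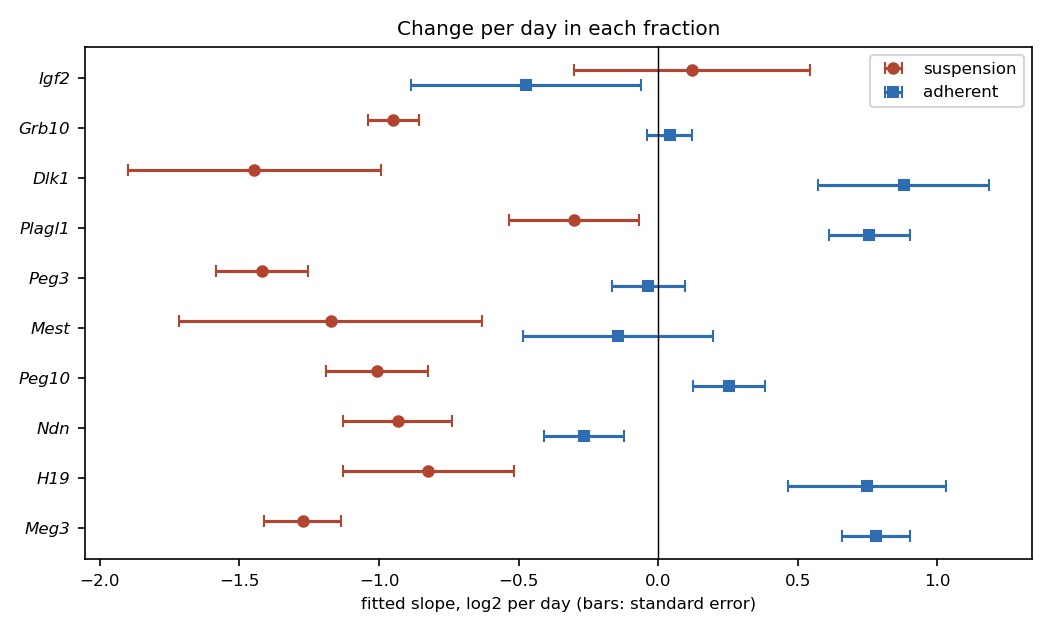
Fitted slope per day in suspension (circles) and adherent cells (squares) for each of the 10 genes, in log2 per day, with standard errors as bars. The suspension slope lies left of the adherent slope for every gene but Igf2, and the gap is widest for Dlk1 and Meg3.

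The difference of the slopes was tested as an interaction of fraction and day. It passed for Meg3 alone, with a slope in suspension 2.05 ± 0.18 log2 per day below that in adherent cells (adjusted p = 0.0485 by edgeR), where 0.463% of all genes passed in that direction, 0.0536% in the other and 0.516% in all. For 9 of the 10 genes the difference was below 0, as it was for 8959 of the 14912 genes tested. The median was -1.16, beside -0.07 over all genes tested. Dlk1 at -2.33 ± 0.54 (adjusted p = 0.115), Peg3 at -1.38 ± 0.21 (adjusted p = 0.067) and Grb10 at -0.99 ± 0.12 (adjusted p = 0.0533) did not pass by edgeR. DESeq2 called 6 of the 10 genes and 1021 genes in all. When genes needed 10 CPM in 3 libraries, which left out Igf2, Dlk1 and Peg10, edgeR called 2 of the 10 and 114 in all. With no filter it called 7 of the 10 and 1006 in all. The Meg3 call was lost on counts of either strand (adjusted p = 0.0534), without globin and mitochondrial genes (adjusted p = 0.0532) and without any 1 library other than the adherent library of day 5, where it was 0.0108. The slope common to both fractions passed for 0 of the 10 genes by edgeR, where 0.0134% of all genes passed. An unadjusted p under 0.05 was found for 1 of the 10, beside 3036 of the 14912 genes tested. DESeq2 called 1 of the 10, Ndn, at -0.59 log2 per day, and 1457 genes in all.

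Ratios of neighbours within a library do not depend on scaling. The Meg3 to Dlk1 count ratio was 10.2, 13.7 and 13.3 in suspension on days 4, 5 and 6 and 20.6, 49.1 and 18.2 in adherent cells. Every adherent ratio was above every suspension ratio, and its log2 mean was 3.62 ± 0.24 (SD, n = 3) for suspension and 4.72 ± 0.78 for adherent cells. An exact two-sided permutation test gave p = 0.1, the smallest that 3 against 3 allow. By these point values Meg3 differed more between the fractions than Dlk1 did, but their log2 ratios of suspension to adherent overlap within standard errors. The suspension ratios rest on 90, 38 and 14 Dlk1 counts, the last with a 95% Poisson interval of 7.65 to 23.5. The H19 to Igf2 ratio was 61.0, 32.6 and 17.6 in suspension and 70.95, 81.9 and 394 in adherent cells, with the same exact permutation p of 0.1. This ratio rests on 5 to 20 Igf2 counts per library: in suspension H19 was higher on day 6 than on day 5 (4.87 against 3.88 CPM) while the ratio was lower.

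Of 18 listed neighbours of the 10 genes in the same imprinted clusters, 13 were tested, and 8 were lower in suspension, 2 higher and 3 not called (29.7% of all genes were lower and 27.1% higher). Beside Igf2 and H19, Cdkn1c, a maternally expressed inhibitor of the cell cycle, had 3.61, 3.15 and 4.16 CPM in suspension, against 27.9, 39.8 and 95.02 CPM in the adherent fraction. Its log2 ratio was -3.90 ± 0.50 (adjusted p = 0.00136 by edgeR), and Kcnq1ot1, the noncoding RNA of that domain, did not pass at -0.04 ± 0.13. Chosen after their values were seen, Phlda2 (1.37) and Ascl2 (-0.37) of that region did not pass either, nor did Ppp1r9a near Peg10 (-0.18) or Ube3a near Ndn (-0.13). Other genes there were called. Osbpl5 (-3.13) was lower and Slc22a18 (1.40) and Tnfrsf23 (0.92) were higher in the region of Cdkn1c. Tfpi2 near Peg10 was lower (-4.77), but not without the suspension library of day 5 (adjusted p = 0.0548 by edgeR). Per day in adherent cells Cdkn1c rose by 0.89 log2 (adjusted p = 0.0177 by edgeR), as 1 of 4 genes that rose, with 1 that fell, among 40 other imprinted genes tested. Over all genes tested 7.75% rose and 3.52% fell in adherent cells. Beside Dlk1 and Meg3, Mirg and Dio3 were lower (-3.39 and -3.77), at means of 3.89 and 2.38 CPM in adherent cells. Rtl1 had 20 counts in all and was not tested, and Rian was not analysed here. Beside Peg3, Zim1 and Usp29 were lower (-5.95 and -6.06), at means of 4.43 and 2.68 CPM in adherent cells. Their ratios rest on 9 and 5 counts over all suspension libraries. Beside Peg10, which shares its start region with Sgce, Sgce was at -5.001 ± 0.42 log2 with 38.0 ± 6.38 CPM in adherent cells (SD, n = 3). Asb4, further along that cluster, was higher in suspension at 0.81 ± 0.24 (adjusted p = 0.0264 by edgeR), but not when any suspension library or the adherent one of day 5 was dropped (adjusted p from 0.0574 to 0.0672). Copg2, which overlaps Mest on the other strand, was higher in suspension, at 0.80 ± 0.15 log2 (adjusted p = 0.0045 by edgeR) and 25.02 against 14.3 CPM. Ddc and Cobl beside Grb10 did not pass (-0.93 and 0.11), Klf14 and Ins2 had no count, and Magel2 beside Ndn had 5 counts. Mkrn3 was lower at -2.73 log2. Snrpn, at -2.92, had an adjusted p of 0.0495 by edgeR and lost its call in 7 of 13 alternatives, at up to 0.157.

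Across a list of 53 other imprinted genes, 51 were in the tables and 40 were tested. Of these 21 were lower (52.5%) and 5 higher (12.5%) in suspension by edgeR, 65% in all beside the 56.8% of all genes tested, and their median log2 ratio of -0.65 was much nearer 0 than the -4.48 of the 10 growth genes. Gnas, which encodes a G protein subunit and whose domain holds several overlapping transcripts, had the highest level, 569 ± 14.3 CPM in suspension against 1119 ± 124 in adherent cells (SD, n = 3). H13 and Igf2r were lower by small ratios (-0.46 and -0.64), and both calls were lost without single libraries, H13 when a suspension library (day 5 or 6) or an adherent one (day 4 or 5) was dropped (adjusted p up to 0.0965). For Igf2r any library but the adherent library of day 4 ended the call (adjusted p up to 0.104), and without that of day 6 its ratio was -0.35. With the collection day as a block Igf2r did not pass either (adjusted p = 0.0595). Dcn, a matrix proteoglycan of fibroblasts, was at -5.51 ± 0.66. The 5 that were higher were Gatm, an enzyme of creatine synthesis, at 1.64 ± 0.25, Slc22a18 at 1.40, Tnfrsf23 at 0.92, Asb4 and Copg2. Without the suspension library of day 5 the counts were 15 lower and 4 higher, and 14 and 1 passed against a 2-fold difference.

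Genes of the insulin-like growth factor pathway, through which Igf2 and Grb10 act, are given by role. Of 22 listed genes 19 were tested, and 14 were lower (73.7%) and 2 higher (10.5%) in suspension by edgeR, beside 29.7% and 27.1% of all genes, with a median log2 ratio of -3.07. Among the ligands, Igf1 was higher in suspension, where it had 109, 172 and 189 CPM while the adherent fraction had 31.4, 39.8 and 89.7 CPM. Its log2 ratio of 1.55 ± 0.43 (adjusted p = 0.0219 by edgeR) lost its call when the suspension library of day 5 (adjusted p = 0.063) or 6 (0.0558) or the adherent one of day 5 (0.0777) was dropped. Among the receptors, Igf1r was lower at -1.29 ± 0.14, Igf2r, which clears IGF2 and is itself imprinted, was at -0.64 ± 0.22, and the insulin receptor gene Insr did not pass at 0.15 ± 0.23 (adjusted p = 0.613). The binding protein genes Igfbp7, Igfbp3 and Igfbp4 were lower at -5.43, -6.75 and -2.57 log2, with adherent means of 427, 204 and 156 CPM. Igfbp2 was also lower (-4.85), but its adherent level was 22.8, 2.12 and 0.978 CPM on days 4, 5 and 6. It lost its call in 5 of 13 alternatives, and without the adherent library of day 4 its ratio was -2.36 (adjusted p = 0.132 by edgeR). Igfbp5 (-3.32, adjusted p = 0.0597) and Igfbp6 (0.76, adjusted p = 0.0762) did not pass by edgeR. Of the genes for proteins that bind Igf2 messenger RNA, Igf2bp1 and Igf2bp2 were lower (-3.07 and -1.86). Igf2bp3 was higher at 0.51 ± 0.15 (adjusted p = 0.0276 by edgeR), but not without any 1 suspension library or the adherent library of day 5 (adjusted p from 0.0556 to 0.0827). Dropping the day 5 library of either fraction or the day 6 suspension library left 0 genes higher. Dropping the adherent one of day 6 gave 3.

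The genes with the most similar pattern were sought for the 4 imprinted genes with the highest mean CPM, as the smallest root mean square difference of centred log2(CPM + 0.5) over the 6 libraries, among 5913 genes with a mean of at least 20 CPM. For Meg3 these were Col6a1, a collagen VI chain, the transcription factor gene Nfib and the noncoding RNA Snhg18, with differences of 0.28 to 0.32 log2. For Peg3 they were Akap12, a scaffold for protein kinase A (0.20), and the collagen I genes Col1a1 and Col1a2 (0.25 and 0.26). For Grb10 they were Dlc1, Snai1 and Vgll3, with differences of 0.13 to 0.21, the closest of the 4. Dlc1 had 2.71, 0.977 and 0.376 CPM in suspension, against 38.3, 38.1 and 46.5 CPM in the adherent fraction. For H19 the nearest genes, Matn2, Igfbp4 and Selenbp1, were less close, at 0.54 to 0.57. Among the 10 genes themselves the closest pair was Grb10 and Ndn (0.33), followed by Mest and Ndn (0.37) and H19 and Dlk1 (0.42), and the last pair lies in different clusters.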

How the data were processed

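The kit was a droplet kit for 3' ends, per the labels' protocols. Per the submitters' processing notes the authors used bcl2fastq, Cell Ranger and STARsolo on mm10, with no version or annotation given in the sources used here. Deposited were the authors' read counts per gene, for whole libraries, with 31053 genes and 4 summary lines, for either strand, the sense strand and the antisense strand. They have no cell axis and are not corrected for molecular identifiers. Sense counts were used. Symbols, coordinates and exons came from GENCODE M21 (GRCm38, the assembly of mm10), which held 31011 identifiers. Of 35 symbols shared by several identifiers, the one with most counts was kept.

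Counts were filtered with filterByExpr (14912 of 22019 genes with any count left), scaled by TMM and tested with edgeR 4.0.16 (R 4.3.3) by fraction (4 residual degrees of freedom), by a common slope per day (3) and by fraction and day (2). DESeq2 1.42.0 with its Wald test was an alternative. Adjustment was by Benjamini-Hochberg, across all genes tested. Standard errors are the absolute log2 value over the square root of F. Days stand in for replicates of a fraction, and a p-value then reflects only how these libraries vary. Both fractions of a day share that collection day, per the labels, and once fraction means were removed, same-day libraries correlated over genes with r of 0.318, 0.0952 and 0.253. The day was therefore also fitted as a block. The steps were tested on simulated counts. The members, lists and tests were chosen with earlier results of these data known. Named were all 10 members, their listed cluster neighbours, 7 genes of the growth factor pathway, up to 5 called genes of each list per direction with the highest mean CPM, and the 3 nearest genes of 4 members. Other alternatives were DESeq2's size factors, no filter, at least 10 CPM in 3 libraries, either strand, no globin or mitochondrial genes, a 2-fold test, day 6 against day 4, and each library left out.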

Additional observations from a re-analysis of the deposited data

Results flagged for a closer look

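In the main fit, with 2 residual degrees of freedom, Meg3 changed differently by fraction over the days, a call that passed in 5 of 12 alternatives. Its slope in suspension minus that in adherent cells was -2.05 log2 per day by the interaction test (adjusted p = 0.0485 by edgeR), from 22.1 to 3.68 CPM in suspension and from 163 to 479 CPM in adherent cells.

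Counts on either strand are not the sum of both strands. In tables of this layout, reads over genes on opposite strands become ambiguous when either strand is counted. Counts on the antisense strand, which were not tested by themselves, were present at all 10 genes. Of the strand-assigned counts over the 6 libraries they made up 24.2% at Igf2, 2.42% at H19, 1.35% at Dlk1, 3.41% at Meg3, 3.79% at Peg3, 8.15% at Mest, 12.1% at Grb10, 14.98% at Plagl1, 4.81% at Peg10 and 0.691% at Ndn. Over all genes the share was 6.67%. At Igf2 it rests on 24 antisense counts. At Mest the fractions stood apart, with 300 antisense and 94 sense counts in suspension (76.1%) and 203 and 5576 in adherent cells (3.51%). Exons of Copg2 cover 23.1% of the exon bases of Mest on the other strand, and Copg2 itself had more sense counts in suspension than in adherent cells on every day (907 to 1499 against 570 to 658). At Meg3, 85.2% of the last 500 exon bases lie across exons of Gm26906 on the other strand. The either-strand counts of Meg3 were below its sense counts in every library (167 against 186 in suspension on day 6).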

How the results depend on the processing

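Precision is limited by 1 library per fraction and day and, for Igf2, by counts of 20 or fewer per library. Counts were also few in suspension on day 6 for Mest (10), Peg10 (13) and Dlk1 (14). The 9 genes called lower in suspension kept their direction in every alternative that gave a value (Dlk1 and Peg10 fell under the filter of 10 CPM) and with every library left out, and their call in all but 1 case (Dlk1 without the suspension library of day 5). The calls on slopes did not hold as well. Over all genes, 8467 differed between the fractions, 5106 with at least 10 CPM in 3 libraries and 3759 against a 2-fold difference. With the collection day as a replicate block the number was 8417, and the block changed no call on the 10 genes. The block gave the same mean differences of the log2 ratios, -2.01 for H19 to Igf2 and -1.11 for Meg3 to Dlk1 (exact sign-flip permutation p = 0.25, the smallest that 3 pairs allow). The common slope passed for 2 genes by edgeR, 1457 by DESeq2 (1 of the 10), 66 with no filter, 0 without globin and mitochondrial genes and 0 for day 6 against day 4, and for 0 to 13 with a library left out. The slope difference passed for 77 genes, 1021 by DESeq2, 1006 with no filter and 114 with at least 10 CPM in 3 libraries. It passed for 62 on either strand, 0 without globin and mitochondrial genes, and 0 to 859 with a library left out. Of the 10 genes it passed for 1 by edgeR, 6 by DESeq2, 7 with no filter, 2 with at least 10 CPM in 3 libraries, 0 on either strand and 0 without globin and mitochondrial genes, and 0 to 5 with a library left out. The cause of these shifts was not tested.

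Signs turned only for slopes that had not passed. The common slope of Dlk1 (0.05) was -0.13 by DESeq2, the adherent slope of Grb10 -0.00047 without globin and mitochondrial genes, and the slope difference of Mest 0.012 on either strand. With a library left out, common slopes spanned -0.60 to 0.049 for Igf2, -0.66 to 0.64 for H19, -1.21 to 0.59 for Dlk1, -0.83 to 0.45 for Meg3, -0.022 to 0.67 for Plagl1 and -0.69 to 0.081 for Peg10. Suspension slopes spanned -1.004 to 1.16 for Igf2, -1.92 to 0.29 for H19 and -1.001 to 0.32 for Plagl1. Adherent slopes spanned -0.50 to 2.24 for Dlk1, -0.11 to 0.040 for Peg3, -1.21 to 0.92 for Mest, -0.18 to 0.26 for Grb10 and -0.72 to 0.18 for Ndn, and slope differences -0.49 to 1.68 for Igf2 and -2.08 to 0.054 for Mest.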
